A study of Mus musculus with 12 samples.

Results

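The acute transcriptional response to cocaine was measured 1 hour after injection in the striatum of control mice, the genotype with serum response factor (SRF) intact. Arrays were chosen by the genotype and treatment in their titles, which gave 6 of the 12 arrays of the series: 3 from saline-injected controls and 3 from cocaine-injected controls. The other 6 arrays, from SRF mutants given saline or cocaine (3 each), are used here to estimate the spread and to show where the response of controls differs from theirs. All animals were female littermates of 10 to 15 weeks, kept singly, handled for 5 days and killed 1 hour after an intraperitoneal injection. The cocaine dose was 25 mg/kg; every sample's treatment text names cocaine, so the saline groups rest on the titles and the series design. Striatum with nucleus accumbens was dissected from sections of 150 µm, and 2 µg of RNA was labelled per array. The alleles that controls carry, the part of Srf altered in mutants, the Cre driver if one was used and any treatment common to all groups are not stated in the labels used here. The titles call the arrays of a group biological replicates, and the p-values measure the spread between these arrays.

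Cocaine blocks the dopamine transporter and so raises extracellular dopamine in the striatum, where most neurons are GABAergic medium spiny neurons that carry D1 or D2 dopamine receptors. Dopamine and glutamate inputs activate cAMP and MAP kinase signalling in these neurons, which reaches the transcription factors CREB and SRF with its Elk-1 type partners. Their targets, the immediate early genes, are transcribed within minutes without new protein synthesis and encode transcription factors, synaptic proteins and inhibitors of the same signalling pathways.

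The titles were checked against Srf itself. Srf read 7.11, 7.21 and 7.18 in the saline controls and 7.13, 7.20 and 6.97 in the cocaine controls (log2 signal), against means of 5.19 ± 0.152 and 5.43 ± 0.0841 (SD, n = 3 each) in saline- and cocaine-treated mutants. Every control array thus lay above the mutant means. The description field goes against the titles: it calls 4 of the 6 control arrays mutant, and all 3 saline controls cocaine-treated mutants. Groups follow the titles throughout. Over the tested probe sets the 6 arrays correlated at 0.986 to 0.993 within a treatment and 0.985 to 0.990 between treatments, and array medians lay at 3.75 to 3.78. Several medium spiny neuron transcripts were bright in all 6 arrays, with Penk at 11.62 to 11.72, Ppp1r1b (DARPP-32) at 10.88 to 11.03 and Drd2 at 8.13 to 8.52. Of the other listed markers, Tac1 read 10.70 to 11.02 and Sfxn1 7.91 to 8.23. Pdyn, Isl1 and Ptprm read lower, within 5.33 to 6.34, and Chrm4 and Eya1 lay near background, within 2.26 to 2.35. Of 9 cortical markers on the array, 7 (among them Neurod6, Neurod2 and Tbr1) lay below the signal filter and read at most 3.63, while Lamp5 read 8.29 to 8.76 and Nrgn, which striatal neurons also express, 8.90 to 9.06. In bulk tissue, fewer cells of a type and less RNA per cell cannot be told apart.

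Cocaine replicate 3 stood apart by 1 gene and saline replicate 1 by several markers. In cocaine replicate 3, Ttr (transthyretin, the dominant transcript of choroid plexus) read 9.61, against 2.83 to 3.13 in the other 5 arrays. The other choroid plexus markers Kl, Folr1, Kcne2 and Aqp1 read 2.21 to 2.65 in all 6 arrays. Otherwise cocaine replicate 3 was like the other cocaine arrays, with 26 probe sets at least 2-fold above the median of the other 5 arrays and 0 below, against 28 and 2 in cocaine replicate 1 and 29 and 1 in cocaine replicate 2. Saline replicate 1 had 63 such probe sets below, against 34 and 30 in the other saline arrays. Of the other 5 arrays, 3 always had the other treatment. Probe sets that changed with cocaine, 35 of them at least 2-fold upward, therefore enter these counts in every array. In saline replicate 1, 9 of 10 tested vascular markers had their lowest level. The pericyte gene Rgs5 read 6.37 there and 7.33 to 8.42 elsewhere, the endothelial transporter Slco1a4 4.62 against 5.66 to 6.42, and the glucose transporter Slc2a1 7.78 against 8.36 to 8.77. The mean of 10 oligodendrocyte genes was also lowest there, at 8.10 against 8.29 to 8.61, with Mobp at 9.17 against 10.04 to 10.43. Some markers of thalamus or septum near background were highest there, with Slc17a6 at 3.82, Calb2 at 4.19, Ramp3 at 4.0 and Prkcd at 4.03. The other listed ones, Tcf7l2, Lef1, Zic1, Zic2, Trpc4 and Prox1, were highest in other arrays. None of the vascular genes passed the test between treatments. Leaving out both arrays gave 41 probe sets called, and 30 of the 42 genes named below kept their call.

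**Figure D1:**
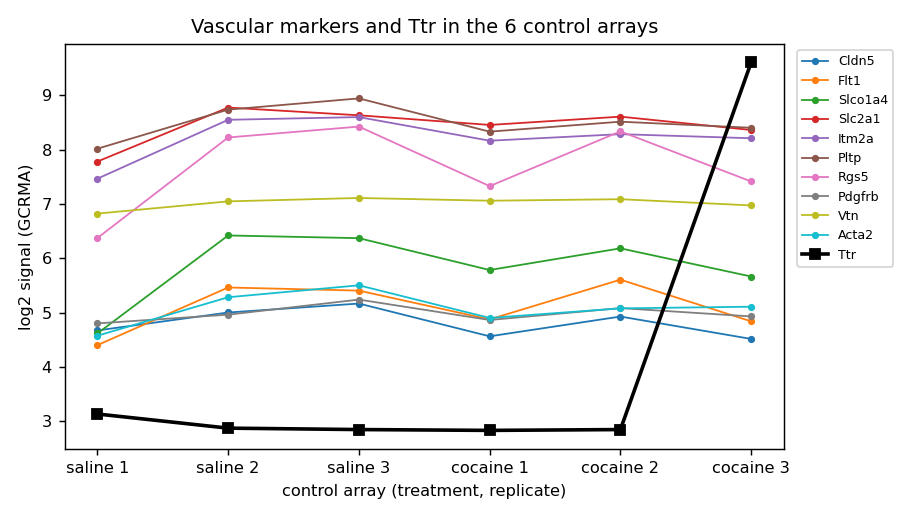
Log2 signal (vertical axis) of 10 vascular marker genes (thin lines) and Ttr (thick black line) in the 6 control arrays (horizontal axis); lines only join the points of 1 gene. Saline replicate 1 is lowest for 9 of the 10 vascular markers, and Ttr is high, at 9.61, only in cocaine replicate 3.

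Cocaine raised a small set of genes and lowered none that passed the test. A probe set was called at a limma adjusted p under 0.05 over all 11102 probe sets tested. In controls, 50 probe sets (0.45% of those tested) were called higher after cocaine, standing for 42 genes, 1 probe set having no single gene symbol. Another 0 probe sets (0%) were called lower. At an unadjusted p under 0.05, 461 were higher and 243 lower. Changes of at least 2-fold numbered 35 upward and 0 downward, and the lowest change was −0.57. Over the 6651 genes tested, the median change was 0.00062, with 3340 positive and 3311 negative; normalisation between arrays sets this balance near 0, so it does not bear on a shift common to all genes.

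The 42 genes spanned a wide range of induction, from 1.34-fold to 17.9-fold. Of these, 10 rose at least 4-fold, 14 between 2- and 4-fold and 18 by less than 2-fold, with a median log2 change of 1.19. All 50 called probe sets had every cocaine array above every saline array. Such separation was itself common: 746 probe sets (6.72%) had all 3 cocaine arrays above all 3 saline arrays, and 501 (4.51%) had all 3 below. In 8 of the 42 genes the mean saline level lay under a log2 signal of 4, where the deposited values are close to background and folds depend on its correction. The filter asked for a signal above 4 in at least 3 of the 12 arrays, and 39 of the 42 genes met it without the control cocaine arrays. Egr2 (at its called probe set with the smallest p), Egr4 and Shisa2 met it only with those arrays counted, where they are high. On the 6 saline arrays of both genotypes alone, 36 of the 42 genes met it. Fosb, Btg2 and Gpr3 did not, and met it only with cocaine arrays of either genotype counted. That these genes and the 3 above were tested thus rests on the rise itself. All of them kept their call when every probe set was tested without a filter.

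**Figure D2:**
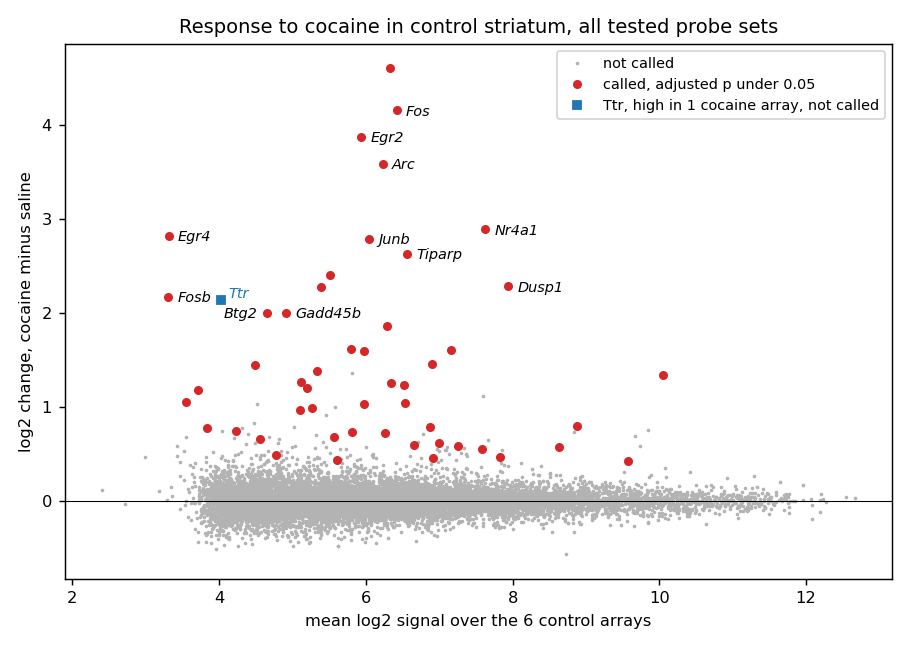
Change after cocaine in control striatum (vertical axis, log2 cocaine minus saline) against the mean log2 signal over the 6 control arrays (horizontal axis) for all 11102 tested probe sets. The 50 called probe sets (red) all lie above 0, while Ttr (blue square) reaches 2.14 through 1 array and is not called.

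Transcription factors made up 5 of the 6 largest changes, namely those of Fos, Egr2, Nr4a1, Egr4 and Junb, and the remaining one was that of Arc. Fos, which with JUN proteins forms the AP-1 factor, read 5.17, 3.71 and 4.14 with saline and 8.06, 8.80 and 8.64 with cocaine. It rose 17.9-fold (log2 change 4.16, SE 0.394, adjusted p = 1e-04), from 4.34 ± 0.751 to 8.50 ± 0.393 (SD, n = 3 each). The groups were separated by 2.89 log2 units although saline replicate 1 stood above the other saline arrays. Fosb, whose protein products include the long-lived form ΔFosB, read 2.27, 2.31 and 2.09 with saline and 4.38, 4.36 and 4.45 with cocaine, a 4.51-fold rise from a level close to background (adjusted p = 0.000797). Junb, an AP-1 partner, read 5.02, 4.36 and 4.57, then 7.29, 7.57 and 7.45, and rose 6.92-fold (adjusted p = 1.54e-05). The treatments did not overlap for these 3 AP-1 genes, as for all 50 called probe sets and 746 tested probe sets (6.72%) in all.

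Jun, the other classical AP-1 partner, read 5.29, 5.20 and 4.91 with saline and 6.46, 6.50 and 6.52 with cocaine. The change of 1.36 (SE 0.279) gave an adjusted p of 0.0611 and was not called. The groups did not overlap, as was true of 6.72% of tested probe sets with cocaine higher. Jun passed in 3 of 15 alternative analyses, with adjusted p-values from 0.00102 with the 6 control arrays alone to 0.356 without the filter, and it passed in none that left out 1 array. Jund, the constitutive member, read 7.64, 7.46 and 7.49 with saline and 7.73, 7.70 and 7.73 with cocaine, a change of 0.19 (adjusted p = 0.856).

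Of the EGR zinc finger factors, 3 were called. At one probe set, Egr2 read 4.04, 4.10 and 3.86 with saline and 7.69, 7.88 and 8.04 with cocaine, with a rise of 14.7-fold that had the smallest adjusted p of all genes (log2 change 3.88, SE 0.108, adjusted p = 4.17e-10). Its other probe set gave 4.69, 3.78 and 3.61, then 8.56, 8.89 and 8.44, a change of 4.61. Both Egr2 probe sets thus went from near background to high signal. Egr4 read 2.12, 1.87 and 1.72, then 4.39, 5.18 and 4.60, a 7.09-fold rise (adjusted p = 5.7e-07) that also started near background and, as said, passed the filter only through these cocaine arrays. Egr1 read 9.63, 9.33 and 9.16 with saline and reached 10.64, 10.82 and 10.68 after cocaine (2.54-fold, adjusted p = 2.66e-05). Its change on the log2 scale was 1.34. Nab2, a corepressor that binds EGR proteins and is itself an EGR target, read 6.30, 6.38 and 6.37, then 6.99, 6.99 and 6.86, a 1.51-fold rise (adjusted p = 0.00641).

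The remaining called members of the immediate early factor list were a nuclear receptor and a basic helix-loop-helix repressor. Nr4a1 (Nur77), an orphan nuclear receptor of activated neurons, read 6.44, 6.08 and 6.02 with saline and 8.94, 9.23 and 9.05 with cocaine (7.42-fold, adjusted p = 1.61e-07). Bhlhe40 (Dec1), a repressor that also acts in the circadian clock, read 6.29, 6.26 and 6.0, then 7.61, 7.84 and 7.45 (2.74-fold, adjusted p = 0.00168). Of 29 immediate early transcription factors on the array, 15 passed the signal filter and 9 were called higher, against 42 of all 6651 genes tested. The median change was 1.36 over the tested members and 0.20 over all 29, and the filter can keep a member because it rose. Of the 12 that passed on the 6 saline arrays of both genotypes alone, 6 were called. Among the members not called, Klf10 changed by 0.83 (adjusted p = 0.68), Crem by 0.48 (adjusted p = 0.706) and Srf by −0.06. Among those below the filter, named after their values were seen, Fosl2 read 2.08 to 2.26 after saline and 2.57 to 2.88 after cocaine, while Egr3, Nr4a2 and Nr4a3 stayed between 1.57 and 2.93 in all 6 arrays, close to background.

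**Figure D3:**
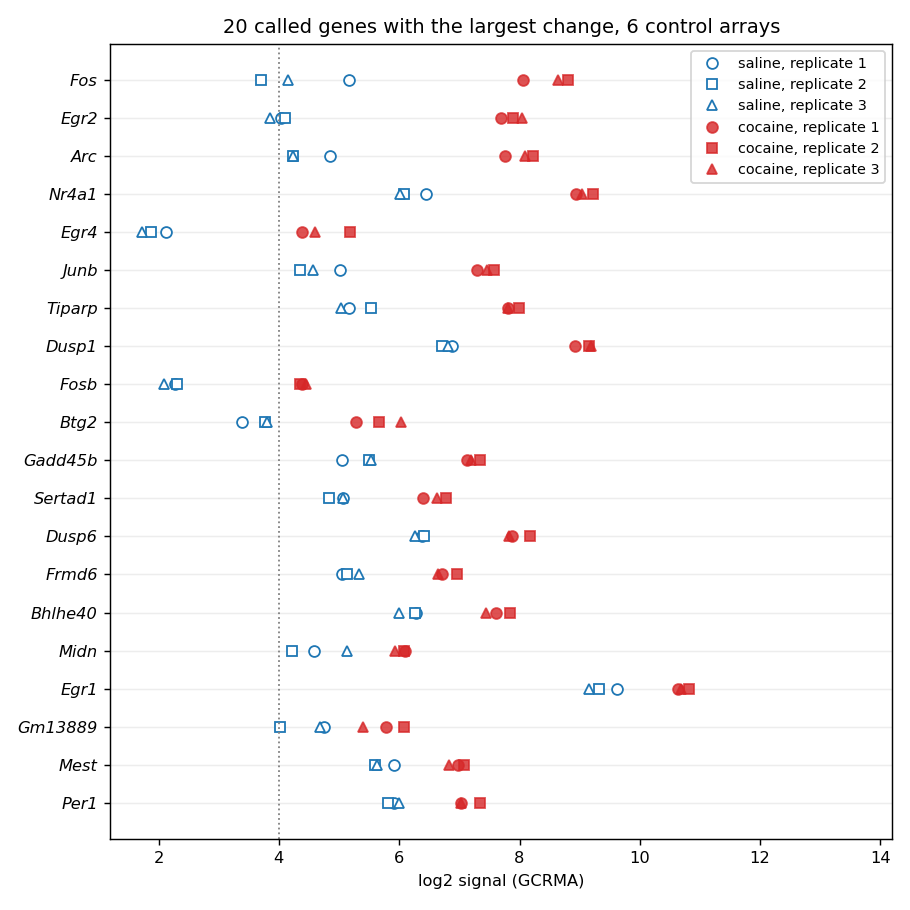
Log2 signal (horizontal axis) in each of the 6 control arrays for the 20 called genes with the largest change, largest at the top; open blue symbols are saline arrays, filled red symbols cocaine arrays, symbol shape gives the replicate and the dotted line marks a signal of 4. The treatments do not overlap for any of these genes, as for all 50 called probe sets and 6.72% of those tested. Fos has the widest spread among saline arrays, 3.71 to 5.17.

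Activity-regulated effector genes were the second large group. Arc, which encodes a postsynaptic protein that drives AMPA receptor internalisation, read 4.84, 4.24 and 4.23 with saline and 7.77, 8.22 and 8.09 with cocaine. It rose 12-fold, by 3.59 on the log2 scale (SE 0.284), with an adjusted p of 1.59e-05. Tiparp, a mono-ADP-ribosyltransferase, read 5.16, 5.54 and 5.03, then 7.81, 8.0 and 7.81 (6.19-fold, adjusted p = 3.27e-07), and its 3 probe sets gave changes of 2.63, 2.41 and 2.28. Btg2, an antiproliferative factor, read 3.39, 3.76 and 3.80, then 5.28, 5.66 and 6.02 (4.01-fold, adjusted p = 0.000925). Btg2 was the most variable of these effectors after cocaine.

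Gadd45b, a stress sensor linked to DNA demethylation in neurons, read 5.05, 5.5 and 5.53 with saline and 7.13, 7.34 and 7.19 with cocaine (3.63-fold, adjusted p = 0.000202). A brighter and a dimmer probe set both called it, with changes of 1.86 and 2.00, while the third stayed at 2.13 to 2.15. Sertad1, a transcriptional coregulator, read 5.07, 4.83 and 5.07, then 6.40, 6.78 and 6.62 (3.06-fold, adjusted p = 0.000471). In both genes cocaine replicate 2 was the highest array. Gpr3, a constitutively active receptor that raises cAMP, read 3.08, 2.96 and 3.00, then 4.10, 4.06 and 4.06 (2.08-fold, adjusted p = 0.000119). Gpr3 had a very small spread, and its saline level lay below 4.

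Other called effectors changed by less than 2-fold. Rgs2, which shortens G protein signalling, read 8.58, 8.48 and 8.36 with saline and 9.18, 9.25 and 9.39 with cocaine at its called probe set (1.74-fold, adjusted p = 0.00164); the brighter one changed by 0.59 and was not called (adjusted p = 0.0856). Plk2, a kinase of synaptic scaling, read 8.28, 8.40 and 8.36, then 8.86, 8.96 and 8.95 (1.49-fold, adjusted p = 0.0034). The survival factor Mcl1 read 7.36, 7.34 and 7.24, then 7.88, 7.86 and 7.85 (1.47-fold, adjusted p = 0.0311) at 1 of its 6 probe sets; the other 5 changed by 0.05 to 0.57 and were not called. Mcl1 lost its call when any 1 of the 6 arrays was left out.

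Of 30 effectors on the array, 20 were tested and 10 were called higher, against 42 of all 6651 genes tested. Their median change was 0.58 over the tested members and 0.24 over all 30, against 0.00062 over all genes tested. Of the 18 that passed on the saline arrays alone, 8 were called. Members not called included Ppp1r15a, a stress-induced phosphatase subunit, at 0.66 (adjusted p = 0.0611), Gadd45g at 0.63 (adjusted p = 0.498) and Cdkn1a at 0.28 (adjusted p = 0.911). The brightest one, Rgs4, read 10.53 to 10.79 in all 6 arrays (change −0.05). Nptx2, a synaptic pentraxin below the filter that was named after its values were seen, read 3.47 to 3.48 after saline and 3.79 to 4.03 after cocaine.

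Inhibitors of MAP kinase signalling were induced in part. Dusp1 (MKP-1), a nuclear phosphatase of p38, JNK and ERK, read 6.88, 6.71 and 6.81 with saline and 8.91, 9.15 and 9.19 with cocaine (4.87-fold, log2 change 2.29, SE 0.262, adjusted p = 0.000542). Dusp6 (MKP-3), a cytoplasmic phosphatase specific for ERK, read 6.38, 6.41 and 6.27, then 7.87, 8.18 and 7.82 (3.05-fold, adjusted p = 5.18e-05). The gap between the highest saline and the lowest cocaine array was 2.03 for Dusp1 and 1.42 for Dusp6. These were the 2 called of 9 tested members, whose median change was 0.27, against 42 called of all 6651 genes tested. Dusp14 read 7.57, 6.64 and 6.89, then 8.13, 8.26 and 8.06, a change of 1.12 that was not called (SE 0.263, adjusted p = 0.126); it passed in 2 of 15 alternative analyses, without saline replicate 1, its highest saline array (1.38, adjusted p = 0.0332), and with array weights (adjusted p = 0.0181), while leaving out any other 1 array gave changes of 0.92 to 1.16 (adjusted p = 0.289 to 0.427). Dusp16 changed by 0.33, Errfi1 by 0.27 and Spry2, the brightest uncalled member, by 0.17, none of them called.

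The clock gene Per1 was induced together with Bhlhe40. Per1, a light- and cAMP-inducible component of the circadian clock, read 5.91, 5.81 and 5.99 with saline and 7.02, 7.35 and 7.03 with cocaine (2.35-fold, adjusted p = 0.00013). These were the 2 called of 15 tested clock genes, against 42 of all 6651 genes tested, and the list's median was 0.03. Per2 changed by 0.46 (adjusted p = 0.578), Cry1 by −0.28 (adjusted p = 0.697), Rora by 0.26 and the brightest one, Dbp, by −0.25, so the other clock genes did not pass in either direction. Glucocorticoid-responsive genes, which respond to stress hormone, likewise had 2 called of 15 (Per1 and Dusp1, both also immediate early genes) and a median of 0.14. Their members Cdkn1a (0.28), Errfi1 (0.27) and Klf9 (0.27, the brightest) were not called.

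Further genes among the 20 largest changes belong to no list. Frmd6, a FERM-domain protein of the Hippo pathway, read 5.05, 5.13 and 5.33 with saline and 6.71, 6.96 and 6.64 with cocaine (3.03-fold, adjusted p = 2.22e-06). Midn (midnolin) read 4.58, 4.22 and 5.13, then 6.09, 6.08 and 5.93 (2.62-fold, adjusted p = 0.00161). Mest, an imprinted gene, read 5.91, 5.59 and 5.63, then 6.98, 7.08 and 6.83 (2.38-fold, adjusted p = 0.000257). Of these 3, Midn had the smallest gap between treatments because saline replicate 3 was high. Gm13889 read 4.74, 4.02 and 4.69, then 5.78, 6.09 and 5.39 (2.41-fold, adjusted p = 0.0256), and it lost its call in 5 of 15 alternative analyses.

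The smaller inductions were spread over signalling, metabolic and trafficking genes. Rnd3, a small GTPase that lowers actomyosin contractility, rose 2.31-fold (adjusted p = 0.00013), and Irs2, an adaptor of insulin receptors, 2.27-fold (adjusted p = 0.00453). The chaperone Dnajb5 rose 2.06-fold, the zinc finger gene Zfp948 1.99-fold and the mitochondrial ATP-Mg carrier Slc25a25 1.96-fold. Fold changes of 1.5 to 1.71 were measured for Shisa2, which retains growth factor receptors in the endoplasmic reticulum (1.71), Pcyt1a of phosphatidylcholine synthesis (1.68), the ESCRT-III subunit Chmp1b (1.66), the EGF receptor ligand Hbegf (1.58), the magnesium transporter Slc41a1 (1.54) and Paxbp1 (1.5). The kinase Prkx, the neuronal intermediate filament Ina, the stress factor Ddit3 (CHOP), Vegfa and the secretory granule protein Chgb rose by 1.34- to 1.40-fold. Chgb, the smallest change, read 9.37, 9.37 and 9.36 with saline and 9.76, 9.85 and 9.78 with cocaine (adjusted p = 0.0311). Calls of 11 genes were lost when 1 array was left out, those of Pcyt1a, Hbegf, Slc41a1, Paxbp1, Prkx, Ina, Ddit3, Vegfa, Chgb, Mcl1 and Gm13889. Small changes were not always among them, since Plk2, Nab2, Shisa2 and Rgs2 kept their call whichever array was left out.

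Probe sets of a called gene did not always move together. Ptpn5 (STEP), a tyrosine phosphatase enriched in striatum, was called at a probe set that read 6.31, 6.59 and 6.54 with saline and 7.31, 7.17 and 7.32 with cocaine (1.73-fold, adjusted p = 0.00519). A brighter Ptpn5 probe set read 9.23 to 9.38 and 9.35 to 9.55 (change 0.15, adjusted p = 0.895), and the third changed by 0.21 (adjusted p = 0.925). The called Ptpn5 signal thus came from the one probe set that differed from both others. Hbegf was called at its dimmer probe set, while the brighter one changed by 1.00 without passing (adjusted p = 0.0556). For Ina, Vegfa, Prkx, Paxbp1 and Pcyt1a only 1 probe set was called, and for Dnajb5 2 of 3.

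Lists that describe the identity and wiring of striatal neurons had medians near 0. Of 20 tested SRF-bound cytoskeletal genes, 0 were called by limma and 0 passed at an unadjusted p under 0.05. Of all 6651 genes tested, 42 were called, and 271 were higher and 151 lower at that unadjusted p. With shares this low over all genes, a count of 0 in a short list says little about its members. The median change was 0.01 and the range −0.21 (Cap1) to 0.11 (Tpm4), with Myl9 at −0.14 and Tpm2 at −0.12. Actb, the brightest, read 11.72 to 11.84 after saline and 11.73 to 11.78 after cocaine. Of 15 SRF-bound immediate early genes on the array, 11 were tested and 10 were called, against 42 of all 6651 genes tested. The remaining tested one was Srf, while Fosl1, Egr3, Ier2 and Cyr61 (Ccn1) lay below the filter. All 10 called ones are also called members of the immediate early factor or effector lists above, so they are not further genes. The median change was 2.79 over the tested members and 2.00 over all 15, and of the 7 that passed on the saline arrays alone 6 were called. Of the 25 cytoskeletal genes on the array, the median was −0.02. The difference between these lists was not tested.

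Neuropeptide precursors gave 0 called of 7, and 0 at an unadjusted p under 0.05. Of all 6651 genes tested, 42 were called, and 271 were higher and 151 lower at that unadjusted p. A count of 0 is thus near the share over all genes for a list this short. Penk (proenkephalin, of D2 neurons) changed by 0.0011 and Pdyn (prodynorphin, of D1 neurons) by −0.12. Tac1 read 10.70, 10.86 and 10.75, then 11.02, 10.86 and 10.87 (change 0.15, adjusted p = 0.837), Cartpt changed by 0.24 (adjusted p = 0.967) and Npy by 0.12. No peptide message of either neuron class passed the test at 1 hour. Among genes of dopamine and cAMP signalling, 1 of 13 was called (Ptpn5, at the probe set named above), against 42 of all 6651 genes tested. The median change was 0.00074 and the largest uncalled ones were Drd2 at −0.19 (adjusted p = 0.861), Cnr1 at 0.11 and Pde10a at 0.10. Arpp21, the brightest, changed by −0.06. Glutamate receptor and postsynaptic genes gave 0 called of 10 and 0 at an unadjusted p under 0.05 (median −0.01, Dlg2 −0.19, Gria3 0.16, Homer1 0.13, Gria2, the brightest, 0.0027). These counts too are near the shares over all 6651 genes given above.

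The CREB-bound genes had a list median of 0.57, and of 0.14 over all 14 on the array. Of 10 tested, 4 were called (Fos, Dusp1, Gadd45b and Per1, each also called in a list above), against 42 of all 6651 genes tested. The members Ppp1r15a (0.66), Crem (0.48), Pdyn (−0.12) and Penk (0.0011, the brightest) were not. Heat shock and unfolded protein genes gave 1 called of 13, Ddit3, and a median of 0.02; Dnajb1 changed by 0.37 (adjusted p = 0.763), Atf4 by 0.29, Dnaja1 by 0.15 and the abundant Hspa8 by −0.02. Without the arrays that stood apart, called members numbered 8 immediate early factors, 8 effectors, 2 MAP kinase inhibitors, 4 CREB-bound genes, 9 SRF-bound immediate early genes, and 0 heat shock and 0 dopamine signalling genes.

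**Figure D4:**
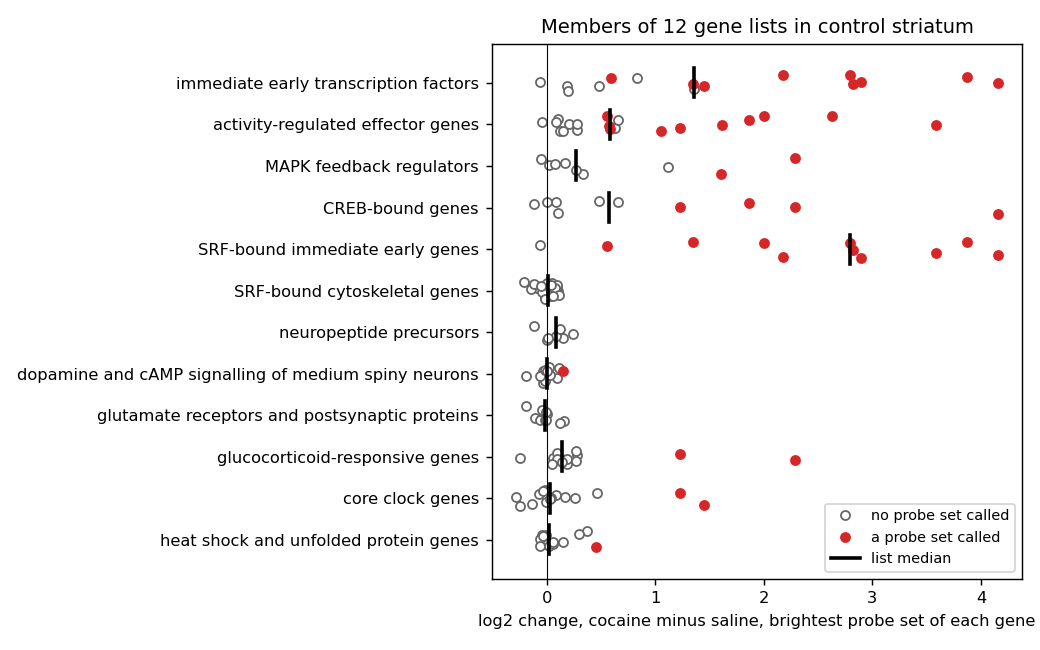
Change after cocaine in controls (horizontal axis, log2 cocaine minus saline at each gene's brightest tested probe set) for the tested members of 12 gene lists (rows); filled red points are genes with a called probe set, open points are not called, black bars are list medians. Called genes gather in the immediate early, effector and SRF-bound immediate early rows, while the 20 SRF-bound cytoskeletal genes lie between −0.21 and 0.11. Lists overlap: all 10 called SRF-bound immediate early genes also appear in the immediate early or effector row.

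Upstream promoter sequence was read for the called genes that RefSeq (GRCm38.p6) covers, 35 of 42, as the 250 bases before each annotated start; the other 7 are Egr1, Arc, Bhlhe40, Hbegf, Chmp1b, Prkx and Gm13889. The SRF-binding CArG box and the full CREB-binding element (CRE, TGACGTCA) were searched on both strands. A CArG box lay in the windows of 2 genes, Egr2 and Rnd3, 5.71% of the 35, against 1.60% of the tested genes with a window. The full CRE lay in 5 genes (Dusp1, Btg2, Slc25a25, Plk2 and Chgb), 14.3% against 3.38%. None of the 35 had both and 28 had neither, so these letters are absent from most of the windows; elements farther from the start were not searched. The shares are descriptions without a test. The 4 windows below are both CArG-bearing ones and those of the CRE-bearing genes with the largest inductions, 5′ to 3′ on the gene's strand, with the element in capitals. In the Egr2 window (chr10:67537316-67537565, plus strand) the CArG box starts 72 bases before the annotated start, in Rnd3 (chr2:51149112-51149361, minus strand) 100 bases before it. In Dusp1 (chr17:26508473-26508722, minus strand) the CRE starts 143 bases before the start and in Btg2 (chr1:134079156-134079405, minus strand) 166 bases before it.
Egr2: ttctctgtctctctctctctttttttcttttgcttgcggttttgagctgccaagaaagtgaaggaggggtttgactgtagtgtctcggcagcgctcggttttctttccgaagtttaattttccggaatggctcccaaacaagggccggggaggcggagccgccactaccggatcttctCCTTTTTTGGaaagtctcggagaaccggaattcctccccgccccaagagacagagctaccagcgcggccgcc
Rnd3: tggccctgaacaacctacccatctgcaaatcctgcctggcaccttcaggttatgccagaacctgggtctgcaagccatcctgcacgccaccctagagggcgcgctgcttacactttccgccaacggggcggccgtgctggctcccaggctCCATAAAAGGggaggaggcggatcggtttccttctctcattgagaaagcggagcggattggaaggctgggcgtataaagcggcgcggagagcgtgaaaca
Dusp1: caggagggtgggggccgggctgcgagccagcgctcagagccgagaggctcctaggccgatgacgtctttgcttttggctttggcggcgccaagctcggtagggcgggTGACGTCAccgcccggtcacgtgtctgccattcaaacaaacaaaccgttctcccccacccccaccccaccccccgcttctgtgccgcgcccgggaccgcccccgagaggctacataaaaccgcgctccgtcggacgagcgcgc
Btg2: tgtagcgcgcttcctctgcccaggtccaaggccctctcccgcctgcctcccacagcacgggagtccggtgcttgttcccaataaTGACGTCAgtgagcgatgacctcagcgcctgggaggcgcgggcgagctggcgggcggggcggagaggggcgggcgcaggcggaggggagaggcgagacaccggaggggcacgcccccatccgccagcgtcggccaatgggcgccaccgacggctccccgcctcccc

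The shorter motif TGACG, which the full CRE contains, lay in 54.3% of the 35 called genes and 33.6% of tested genes, and the EGR motif GCGNGGGCG in 25.7% and 11.5%. The AP-1 motif TGANTCA lay in 2.86% and 5.27%.

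Most of the response of controls was also measured in SRF mutants, whose saline and cocaine arrays are separate from those of controls. Among mutant arrays 195 probe sets (1.76%) were called higher after cocaine, and 35 of the 42 genes were among the genes called there. The 7 that were not called in mutants were Egr2, Egr4, Shisa2, Pcyt1a, Hbegf, Nab2 and Mcl1. The difference between genotypes was tested itself: 8 of all probe sets (0.0721%) were called, and 4 of these were among the 50, standing for 3 genes. Egr2 changed by 3.88 in controls and −0.06 in mutants (difference −3.94, SE 0.153, adjusted p = 2.63e-08). Egr4 changed by 2.83 and 0.01 (difference −2.82, SE 0.228, adjusted p = 7e-05). The rise of both genes was thus measured in controls and not in mutants. Zfp948 went the other way, with 0.99 in controls and 1.97 in mutants (difference 0.98, adjusted p = 0.0309), but that difference lost its call when any 1 control array was left out (adjusted p = 0.0585 to 0.138), without the filter (0.137) and under a replicate block (0.0968).

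For the remaining genes the difference was not called. Fos changed by 4.16 in controls and 3.64 in mutants (difference −0.52, SE 0.557), and Arc by 3.59 and 2.70 (−0.89, SE 0.401, adjusted p = 0.983). Egr1 changed by 1.34 and 0.64 (−0.71, SE 0.158, adjusted p = 0.32), Rnd3 by 1.21 and 0.53 (−0.68, adjusted p = 0.367) and Mest by 1.25 and 2.12 (0.87, adjusted p = 0.306). The intervals of these differences are wide for Fos and Arc, so smaller differences could not be detected with 3 arrays a group.

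**Figure D5:**
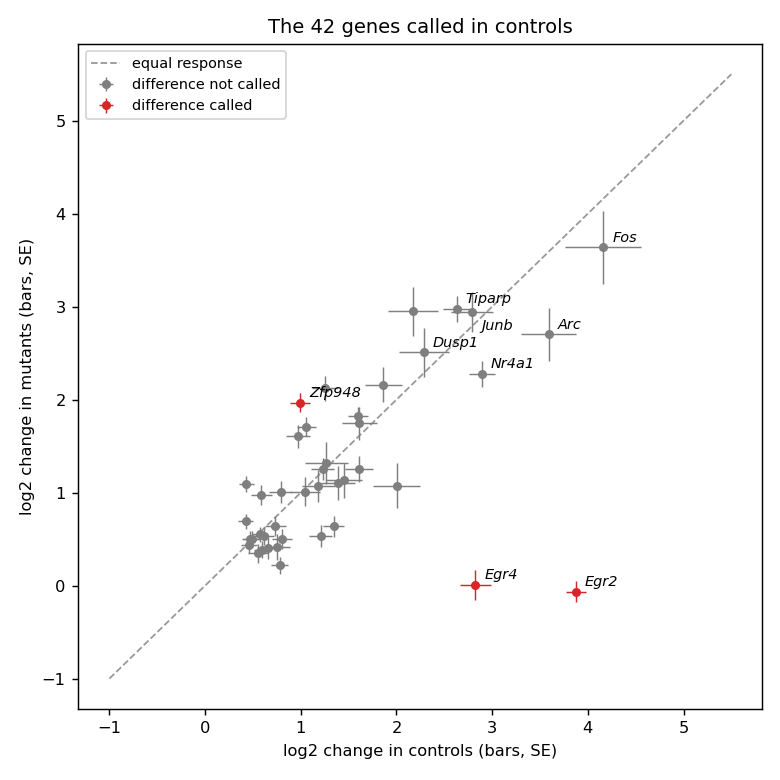
Change after cocaine in mutants (vertical axis) against the change in controls (horizontal axis), both log2 cocaine minus saline, for the 42 genes called in controls; bars are standard errors and the dashed line marks equal change. Egr2 and Egr4 lie near 0 in mutants, at −0.06 and 0.01, and Zfp948 at 1.97; these 3 genes (red) were called for the difference.

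The median over the 42 genes of the level minus the saline mean was 1.10, 1.31 and 1.08 in cocaine replicates 1 to 3. In the saline arrays it was 0.06, −0.01 and −0.05, near 0 because the mean is their own. The 42 genes were called in this same comparison, which favours a small spread between these arrays. The closeness of the cocaine medians is therefore no evidence of an even response. Cocaine replicate 2 had the highest of the cocaine levels for 30 of the 42 genes, and saline replicate 1 the highest of the saline levels for 23, among them Fos, Arc, Junb, Nr4a1, Egr1 and Egr4. How often each array ranked highest over all tested probe sets was not counted. These counts therefore do not set the 42 genes apart from other genes on the same arrays. Saline replicate 1 is also the array with low vascular and oligodendrocyte markers and with the highest Slc17a6, Calb2, Ramp3 and Prkcd; the part of that in the levels of these genes was not tested. Leaving it out changed the response of Fos from 4.16 to 4.57 and kept 37 of the 42 calls.

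Just beyond the threshold, 10 genes with positive changes had adjusted p-values of 0.0511 to 0.0726. They were Kdm7a (0.74), Baiap2 (0.63), Peli1 (0.50), Nup98 (0.45), Jun, Ppp1r15a, Insig2 (0.38), Atp7a (0.67), Slc7a10 (0.38) and Sstr2 (0.68). Kdm7a, a histone demethylase, read 3.49, 4.02 and 3.51 with saline and 4.26, 4.61 and 4.38 with cocaine. Baiap2 (IRSp53), a postsynaptic actin regulator, read 6.29, 6.51 and 6.38, then 6.99, 7.11 and 6.95. Neither gene overlapped between treatments, as was true of 6.72% of tested probe sets with cocaine higher. The 10 genes with the smallest adjusted p among negative changes ran from 0.0611 to 0.234: Sufu (−0.51), an inhibitor of Hedgehog signalling, Dstyk (−0.40), Tvp23a (−0.46), Trp53inp1 (−0.38), Poc5 (−0.45), Pex26 (−0.37), Cmip (−0.43), Taf4 (−0.33), Tmem115 (−0.43) and Ddit4l (−0.40). Sufu read 4.15, 4.28 and 4.21 with saline and 3.62, 3.87 and 3.60 with cocaine, and 0 of the 10 passed the test.

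Markers of other cell types were not called in either direction. Medians of the astrocyte (15 tested), oligodendrocyte (10), microglia (13) and vascular (10) lists were 0.08, 0.14, 0.05 and 0.02, and at an unadjusted p under 0.05 they had 0, 1, 1 and 0 higher members and 0 lower ones. Of all 6651 genes tested, 42 were called, and 271 were higher and 151 lower at that unadjusted p, so these counts are near the share over all genes. Oligodendrocyte genes were positive in 9 of 10; the log2 of their summed signal ranged from 13.1 to 13.3 after saline and from 13.3 to 13.4 after cocaine. The mean shift of the oligodendrocyte list was 0.14, and 0.05 without saline replicate 1; that of the vascular list was −0.03, and −0.34 without that array. Zic1, the only tested thalamic or septal marker, read 6.46, 6.11 and 6.54 with saline and 5.70, 6.44 and 5.61 with cocaine, and was not called. The part of these small shifts in the response was not tested.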

How the data were processed

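The authors deposited 1 log2 signal for each probe set on each array. GCRMA in R 2.4.1 was used, per the submitters' processing notes; it corrects background by probe sequence, normalises between arrays and summarises the probes of a set. Its options and the log base are not stated there. The range of 1.26 to 13.1 is that of log2 values, and a shift common to a whole array would no longer be visible. The number of arrays limits the precision.

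Of 22690 probe sets, 64 controls were left out and 11102 with a signal above 4 in at least 3 of the 12 arrays were tested. Names come from the platform annotation; 20393 probe sets carry 1 symbol, 691 several and 1606 none, and only the first were named. limma 3.58.1 (R 4.3.3) was fitted with 4 group means over all 12 arrays (8 residual and 4.71 prior degrees of freedom), with Benjamini-Hochberg adjustment over all tested probe sets. All p-values are limma's, two-sided, and SE are limma's. A gene is called if any of its probe sets is. Lists use the brightest tested probe set of a gene. The fit was tested on simulated data.

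Members and lists were chosen with earlier results of these data known, so a list's count is not independent evidence. Array values are given for the 20 called genes with the largest change and for called list members; each list's called members, its 3 largest uncalled changes, its brightest uncalled member, and 10 uncalled genes per direction are named. Alternatives were the control arrays alone, a replicate block, filters, scaling, array weights, a trended robust variance and leaving out arrays. Promoter windows are RefSeq's (GRCm38.p6); the files name no build, so coordinates are given only for these windows.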

Additional observations from a re-analysis of the deposited data

Results flagged for a closer look

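The interaction test called 8 probe sets for a difference in response between genotypes, and 4 genes of these are described here. The response of mutants minus that of controls was −3.94 for Egr2 (adjusted p = 2.63e-08), −2.82 for Egr4 (adjusted p = 7e-05), 0.98 for Zfp948 (adjusted p = 0.0309) and 1.85 for Sstr2 (adjusted p = 0.00146). Sstr2, a somatostatin receptor, read 3.28, 3.05 and 3.30 with saline and 4.08, 3.80 and 3.78 with cocaine in controls, a change of 0.68 that was not called (adjusted p = 0.0726), against a change of 2.53 in mutants. Sstr2 met the filter only with the mutant cocaine arrays counted, where its mean was 6.23, so that it was tested rests on their rise. Its difference had a limma adjusted p of 0.0494 when every probe set was tested without a filter. Over the alternatives that give this test, the difference ranged from −4.03 to −3.86 for Egr2, from −2.99 to −2.46 for Egr4, and from 1.76 to 1.95 for Sstr2, with adjusted p-values of at most 0.0494. Zfp948 was less stable: its difference ranged from 0.91 to 1.02 and passed in 5 of 14 alternatives (adjusted p = 0.0182 to 0.217). The other genes called, named after their values were seen, were Taf1a (difference 1.56), Tinf2 (1.25) and Gpr19 (1.12), none of them called in controls. The saline levels of Egr4 and Sstr2 lie near background.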

How the results depend on the processing

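The 50 calls became 47 with the control arrays alone, 39 with no filter, 48 with a floor of 6, 50 with median centring or quantile normalisation, 61 with a trended robust variance and 73 at an adjusted p under 0.10. With array weights, which gave saline replicate 1 the lowest weight (0.421), 88 probe sets were called, 81 higher and 7 lower. Leaving out 1 array gave 40 to 56. Leaving out both arrays that stood apart, chosen after seeing the data, gave 41. Of the 42 genes, 25 kept their call in every alternative that gave them a value, and no called gene changed sign. The replicate block gave 46 calls (45 higher, 1 lower). Deviations of same-numbered arrays correlated at 0.045, −0.0824 and −0.0111, and those of all pairings lay between −0.0824 and 0.0885. No effect shared by same-numbered arrays was visible, but such correlations cannot tell whether the samples were paired. Calls for the difference among the 50 numbered 4, or 3 where Zfp948 was lost. With the floor of 6 they also numbered 4, but Egr4 had no value there, so these were not the same 4. Without the filter the median of the immediate early factors was 0.20, since members near background then enter.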

Other observations

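No gene was called lower after cocaine in all 12 arrays fitted together, but some passed under 1 or 2 of the alternatives. Sox17, a transcription factor of endothelial cells, was lower by −0.74 without saline replicate 1 (adjusted p = 0.00567) and by −0.65 without both arrays that stood apart (adjusted p = 0.0231). Saline replicate 1 is the array with the low vascular markers. Tvp23a was called lower under the replicate block (−0.46, adjusted p = 0.0299) and with array weights (−0.54, adjusted p = 0.036). Mycn was called lower without saline replicate 3 (−0.57, adjusted p = 0.0311), and Tmem115 without cocaine replicate 2 (−0.56). Sufu was called lower without cocaine replicate 2 (−0.60, adjusted p = 0.0402) and with array weights (−0.53, adjusted p = 0.0261). Array weights also called Trp53inp1, Cmip, Colgalt1 and Pex26 lower, by −0.63 to −0.41. These genes were named after their values were seen.

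Ttr, high in 1 control array, also varied among mutants. It read 3.08, 5.57 and 3.49 in the mutant arrays after saline and 5.90, 3.05 and 4.75 in those after cocaine, so arrays of either treatment were above the range of 2.83 to 3.13 of the other 5 controls.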
